A study of Mus musculus with 8 samples.

Results

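A set of 7 genes outside the known clock were described because their levels differed between times of day in the colonic epithelium of mice: Ccdc116, 0610005C13Rik, Gm42047, Sprr2a1, Tppp, Pm20d1 and Alpi. They were 7 of the 14247 genes with values, and all 7 had a mean of at least 10 normalised read counts, the level required of the 13503 genes that were fitted. They were selected on the same read counts that are described here, so their differences between time points are given as values. No call of these genes in the fits over all genes counts as a test of them.

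Colonic crypts, the glands that make up most of the epithelium of the large intestine, were isolated from wild-type mice for bulk RNA sequencing. Zeitgeber time (ZT) counts hours from the moment the lights go on, and the crypts were taken at ZT0, ZT6, ZT12 and ZT18, which are 0, 6, 12 and 18 h. ZT0 and ZT6 fall in the light, when mice rest, and ZT12 and ZT18 in the dark, when they are active. Each time point had 2 libraries, labelled as colonic epithelial cell, genotype WT, and named here replicate 1 and replicate 2. According to the methods of the study its mice were on a C57BL/6 background, 2 to 4 months old and kept at 12 h light and 12 h dark, and no treatment was given to these groups. Whether the 2 libraries of a time point came from separate animals is not said in the labels, and more mice per group are named in the legend on these crypts than the 2 libraries per time point used here, so the spread between them may be partly technical.

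The circadian clock is a feedback loop of transcription. BMAL1, encoded by Arntl, and CLOCK activate genes such as Per2, Nr1d1 and Dbp, whose products in turn repress the loop or pass its rhythm on to other genes, so that clock-driven transcripts peak at a fixed hour. In the intestine such output genes include transporters, enzymes and genes of the epithelial barrier, and food, light and microbes add daily signals of their own.

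Libraries held between 14722342 and 25159440 reads, with a median of 17507372, of which between 6.68% and 22.2% were from the mitochondrial genome. The epithelial markers, 9 of 9 in the table, stayed within -0.19 and 0.20 of their mean over the 8 libraries (median log2 deviation). ZT12 replicate 1 stood apart by its smooth muscle markers (deviation of 6.26, 5 of 6 genes in the table) and its fibroblast markers (4.76, 6 of 6), and ZT0 replicate 2 by its B and plasma cell markers (4.34, 7 of 8) and myeloid markers (3.39, 6 of 7). The summed normalised count of the smooth muscle list ran from 6.95 in ZT0 replicate 1 to 3672 in ZT12 replicate 1, and that of the B and plasma cell list from 154 in ZT12 replicate 2 to 2393 in ZT0 replicate 2. In other libraries up to 4 of the smooth muscle genes and up to 2 of the B and plasma cell genes were at 0. Values without these 2 libraries are given beside the results. In bulk samples fewer cells of a type and less RNA per cell cannot be told apart.

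The fitted peaks of the 7 genes were spread over the day, though each rests on only 4 time points. A 24 h cosine fitted to log2(normalised count + 1) placed the peak of Sprr2a1 at 3.95 h, Gm42047 at 5.94 h, Ccdc116 at 8.74 h, 0610005C13Rik at 10.9 h, Alpi at 13.03 h, Pm20d1 at 15.3 h and Tppp at 19.8 h. The spread between replicates, expressed in hours of peak time, was 2.09 h for Alpi, 1.35 h for Pm20d1 and 1.18 h for Tppp. It was 0.94 h for Sprr2a1, 0.87 h for Gm42047, 0.51 h for 0610005C13Rik and 0.26 h for Ccdc116. The peak of Alpi could thus not be ordered with confidence against those of 0610005C13Rik and Pm20d1, which lay 2.08 and 2.26 h from it. The peaks of clock genes in the same libraries were 8.80 h for Nr1d1, 10.6 h for Dbp, 15.6 h for Per2 and 23.5 h for Arntl. Of these 4 clock genes, Nr1d1 lay nearest to Ccdc116, Dbp to 0610005C13Rik and Per2 to Pm20d1. Among all 13 clock genes fitted, Nr1d1 was still the nearest to Ccdc116. Nr1d2 at 10.9 h was then nearest to 0610005C13Rik, Per1 at 13.1 h to Alpi, Cry2 at 15.1 h to Pm20d1 and Cry1 at 19.7 h to Tppp. Sprr2a1 and Gm42047 peaked in the light phase before Nr1d1, Dbp and Per2. The amplitude of the fitted curve, measured from its midline to its top, was 1.72 log2 units for Gm42047, 1.16 for Ccdc116, 0.93 for Sprr2a1, 0.92 for Pm20d1, 0.85 for both Tppp and 0610005C13Rik, and 0.78 for Alpi. The median amplitude over all genes fitted was 0.23. Of the 13 clock genes, Clock at 3.49 h was nearest in peak to both Sprr2a1 and Gm42047, but its amplitude was only 0.05.

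**Figure D1:**
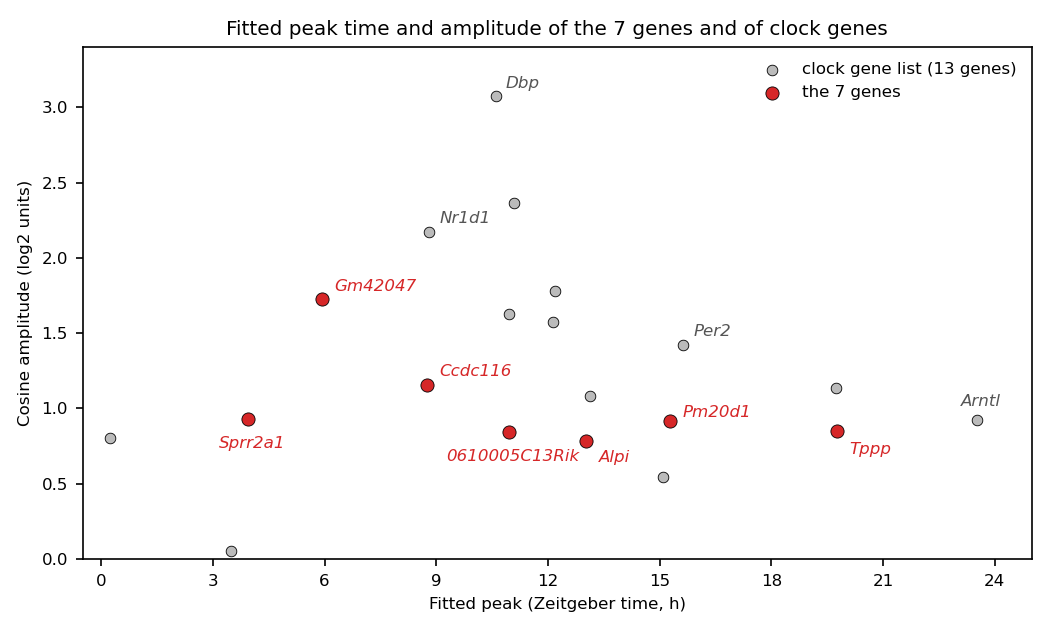
Fitted peak time (x axis, Zeitgeber time in h) against the amplitude of the 24 h cosine (y axis, log2 units) for the 7 genes (red, named) and 13 clock genes (grey, 4 of them named). The 7 genes spread from 3.95 h (Sprr2a1) to 19.8 h (Tppp), and Gm42047 has the highest amplitude of the 7 at 1.72.

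How closely the 2 libraries of a time point agreed differed among the genes. The standard deviation within time points on the log2 scale was 0.08 for Ccdc116, 0.11 for 0610005C13Rik, 0.23 for Sprr2a1, 0.26 for Tppp, 0.32 for Pm20d1, 0.39 for Gm42047 and 0.43 for Alpi, against a median of 0.29 over all genes fitted. Differences between time points made up 99.6% of the variance of Ccdc116, 98.2% of that of 0610005C13Rik, 95.6% for Gm42047, 94.5% for Sprr2a1, 92.0% for Pm20d1, 91.3% for Tppp and 83.4% for Alpi. The median of that share over all genes was 46.5%. Ccdc116 and 0610005C13Rik were therefore the tightest of the 7 and Alpi the loosest.

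The 7 genes were chosen because they differed between time points in these same libraries. The calls below come from fits over all genes and are no independent support for the 7. In the cosine fit with limma, 16 of 13503 genes (0.118%) had a Benjamini-Hochberg adjusted p under 0.05, and Ccdc116, Sprr2a1, 0610005C13Rik and Tppp were among them. In the F-test over the 4 time points 12 genes (0.0889%) were, among them Ccdc116 and Gm42047. Pm20d1 and Alpi passed neither. These calls of the 7 genes were not stable: with 1 library left out between 0 and 2 of them were called by the cosine fit and 0 or 1 by the F-test, without the variance trend 0 were by either, and with DESeq2's likelihood ratio test on recovered reads 6 and 7 were. The libraries of the highest and of the lowest time point did not overlap for any of the 7, which also held for 69.7% of all genes fitted. At the edge of the cosine threshold, Tppp with an amplitude of 0.85 and Sgk1 with 0.86 lay just inside, and Arntl with 0.92, Hsph1 with 0.96, Tppp3 with 1.54 and Gm42047 with 1.72 lay just outside.

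**Figure D2:**
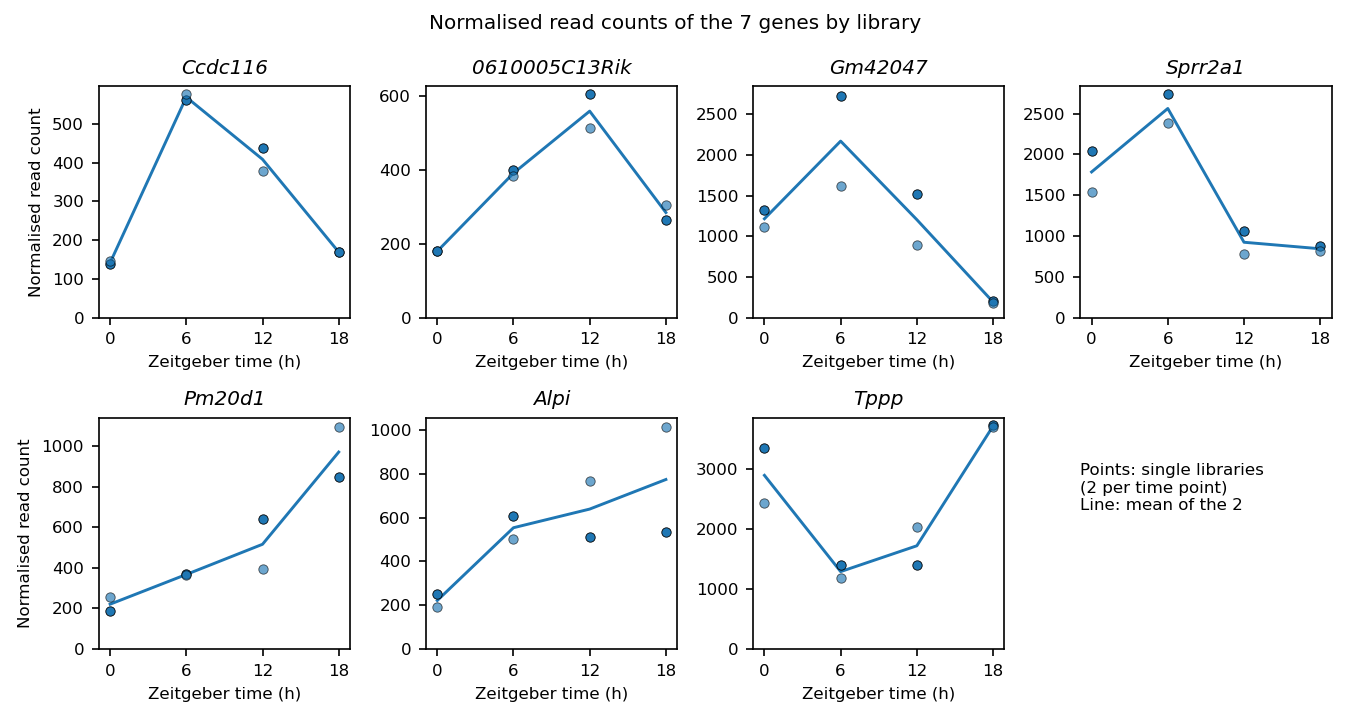
Normalised read counts (y axis, from 0) of the 7 genes at ZT0, ZT6, ZT12 and ZT18 (x axis, h). Each point is 1 library and the line joins the means of the 2 libraries. The points of Ccdc116 and 0610005C13Rik lie near the line and are farthest from it at ZT12, at 437 and 379 and at 607 and 513. The ZT18 libraries of Alpi lie at 532 and 1016.

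Ccdc116 (ENSMUSG00000022768) encodes a coiled-coil domain protein whose function is little known. It lies on the minus strand of chromosome 16 at 17139064 to 17147229 (GRCm38). Its normalised counts were 137 and 146 (ZT0), 562 and 575 (ZT6), 437 and 379 (ZT12) and 168 and 170 (ZT18). The order was ZT6, ZT12, ZT18 and ZT0, and no library of one time point fell between those of another. From ZT0 to ZT6 the mean went from 141 ± 5.97 to 569 ± 9.69 (SD, n = 2 each), a ratio of 4.02 and a log2 difference of 2.00 (SE 0.08). The drop between ZT12 and ZT18 brought it back to 169 ± 0.977, close to its ZT0 level, so that the gene was high at 2 adjacent time points and low at the others. Without ZT0 replicate 2 and ZT12 replicate 1 the difference was 2.04.

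The outermost start of Ccdc116 lies inside the gene Ydjc, which encodes a deacetylase-like protein and is transcribed from the opposite strand. Ccdc116 also has RefSeq starts further in, with windows at chr16:17144397-17144696 and chr16:17144374-17144673. These starts lie outside Ydjc, which begins at 17144621. The bases just upstream of the outermost start are shown because they are at the same time Ydjc coding sequence: the Ydjc coding exon begins after a gap of 3 bases. The stretch runs from chr16:17147230-17147479 (GRCm38.p6, minus strand, RefSeq), 5′ to 3′ toward the Ccdc116 start, with the 219 bases of Ydjc coding exon in capitals.
Ccdc116: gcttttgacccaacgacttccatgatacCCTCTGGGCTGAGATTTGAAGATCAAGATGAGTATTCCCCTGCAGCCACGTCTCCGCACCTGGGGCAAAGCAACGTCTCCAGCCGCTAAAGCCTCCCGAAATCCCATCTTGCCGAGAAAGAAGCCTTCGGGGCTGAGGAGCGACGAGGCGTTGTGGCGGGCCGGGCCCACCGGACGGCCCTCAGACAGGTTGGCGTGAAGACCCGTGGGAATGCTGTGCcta

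The spans of both genes overlap by 2609 bases and their exons by 299 bases, which is 6.64% of the annotated exon sequence of Ccdc116, and 4.36% of all stretches of 100 bases in its transcripts also occur in those of Ydjc. Ydjc had normalised counts of 359 and 354 (ZT0), 339 and 422 (ZT6), 360 and 461 (ZT12) and 313 and 300 (ZT18). It was thus nearly level where Ccdc116 differed by a ratio of 4.02, with an amplitude of 0.18 and a limma adjusted p of 0.731 in the cosine fit (Benjamini-Hochberg over all genes). Its fitted peak, at 8.17 h, lay close to the 8.74 h of Ccdc116. Reads from the exons that both genes share may have been assigned to either, since strand use in the counting is not stated. The nearest measured genes further out were Ube2l3, 4784 bases upstream, with an amplitude of 0.22 and an adjusted p of 0.677 in the same fit, and Sdf2l1, 6681 bases downstream, with 0.38 and 0.559. Over the 8 libraries, after each gene was scaled to mean 0 and SD 1, the genes closest to Ccdc116 were Plscr1, Nr3c2 and Casp1, at root mean square distances of 0.233, 0.304 and 0.323. Plscr1 encodes a membrane phospholipid scramblase, Nr3c2 the mineralocorticoid receptor and Casp1 the protease of the inflammasome. Their amplitudes were 0.23, 0.48 and 0.28, all below the 1.16 of Ccdc116.

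0610005C13Rik (ENSMUSG00000109644) is annotated as an antisense RNA with no protein product. It lies on the minus strand of chromosome 7 at 45567794 to 45575327 (GRCm38). The normalised counts of this RNA were 179.8 and 180.0 (ZT0), 400.4 and 383 (ZT6), 607 and 513 (ZT12) and 265 and 305 (ZT18). The order was ZT12, ZT6, ZT18 and ZT0, again with no overlap between any 2 time points. The mean of 560 ± 66.2 at ZT12 was 3.11 times the 179.9 ± 0.169 at ZT0 (SD, n = 2 each), a log2 difference of 1.63 (SE 0.11). Without ZT0 replicate 2 and ZT12 replicate 1 this difference was 1.51.

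This RNA starts within Bcat2, the gene of the mitochondrial branched-chain aminotransferase, on the other strand. A stretch upstream of its RefSeq start, which stops short of that start, is shown because most of it is exon of a Bcat2 transcript. RefSeq places the start at 45575176, inside the GENCODE span given above, so 129 bases of the stretch lie upstream of the RefSeq start but within the gene as GENCODE has it. The stretch is chr7:45575199-45575426 (GRCm38.p6, minus strand, RefSeq), 5′ to 3′ toward the RefSeq start of 0610005C13Rik, with the 205 bases that lie in an exon of a Bcat2 transcript in capitals.
0610005C13Rik: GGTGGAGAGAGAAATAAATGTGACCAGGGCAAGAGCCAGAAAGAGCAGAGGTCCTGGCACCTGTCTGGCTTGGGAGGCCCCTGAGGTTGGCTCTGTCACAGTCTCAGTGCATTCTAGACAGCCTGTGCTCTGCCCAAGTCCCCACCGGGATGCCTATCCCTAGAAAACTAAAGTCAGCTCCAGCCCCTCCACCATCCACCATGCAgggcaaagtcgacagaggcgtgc

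The overlap with Bcat2 covers 5175 bases of span and 622 bases of exon, or 17.4% of the exon sequence of 0610005C13Rik, and 6.48% of its stretches of 100 bases occur in Bcat2 transcripts. Bcat2 had normalised counts of 848 and 1219 (ZT0), 793 and 815 (ZT6), 572 and 709 (ZT12) and 960.4 and 613 (ZT18). It was lowest at ZT12, where 0610005C13Rik was highest, and its fitted peak was at 0.382 h, with an amplitude of 0.34 and a limma adjusted p of 0.563 in the cosine fit. Hsd17b14, a steroid dehydrogenase gene that ends 42 bases from the end of 0610005C13Rik, was low, between 6.84 and 52.2 normalised counts, with an adjusted p of 0.847 in that fit. Strand use in the counting is not stated, so reads from the exons shared with Bcat2 may have been assigned to either gene.

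The 3 genes whose 8 values were most like those of 0610005C13Rik were all clock genes or clock outputs. Among 13503 genes the closest was Dbp, a PAR-domain transcription factor driven by the clock, at a distance of 0.144, then Nr1d2, a nuclear receptor of the clock, at 0.169 and Ciart, a repressor within the clock, at 0.202. The peaks were 10.6, 10.9 and 11.1 h against 10.9 h for 0610005C13Rik. The size of the swing differed: the amplitude was 3.07 for Dbp, 1.63 for Nr1d2 and 2.36 for Ciart against 0.85. Dbp rose from 26.8 and 21.5 normalised counts at ZT0 to 1593 and 1113 at ZT12.

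**Figure D3:**
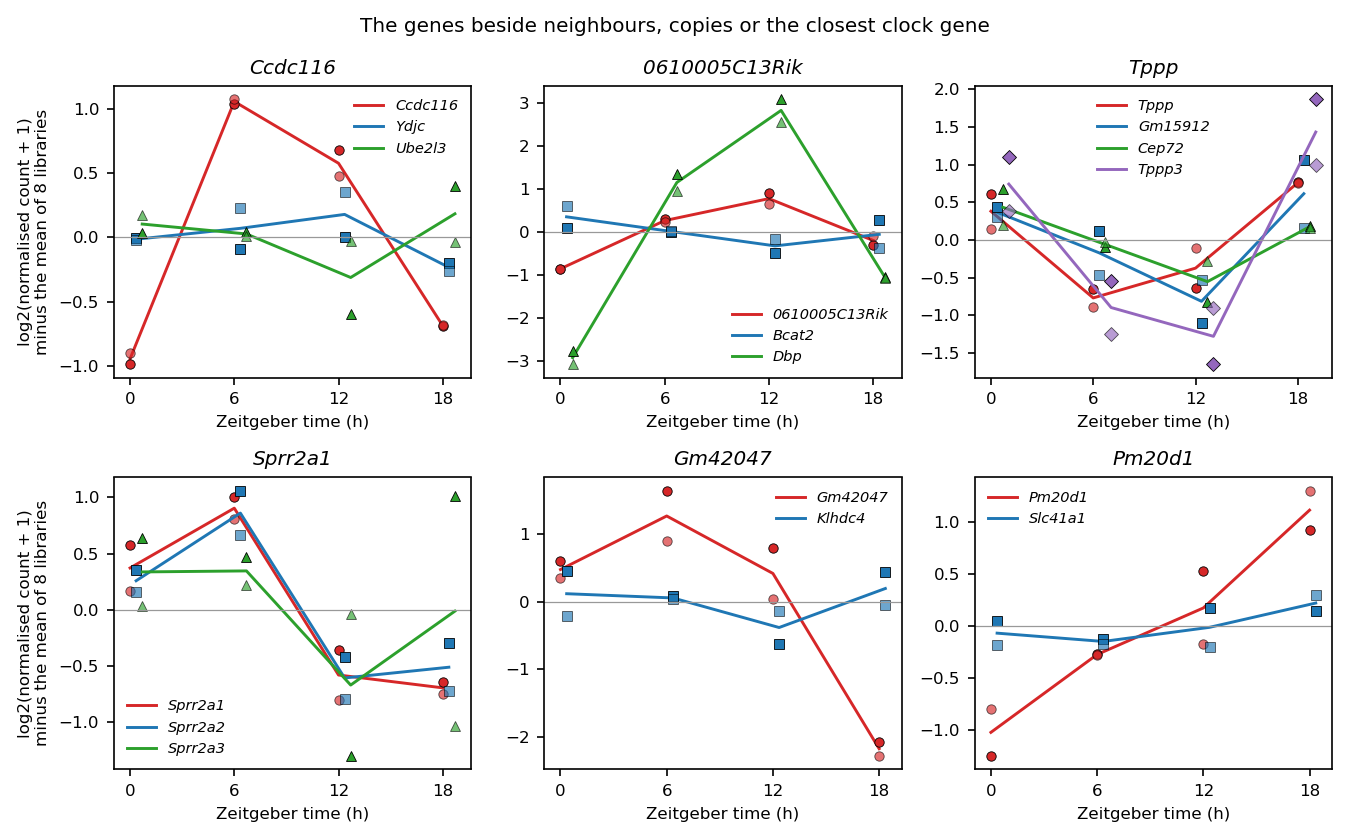
Deviation of log2(normalised count + 1) from the mean of the 8 libraries (y axis) against Zeitgeber time (x axis, h) for 6 of the 7 genes (red) beside neighbours, copies or, for 0610005C13Rik, Dbp. Points are single libraries, darker for replicate 1, lines join the means, and other genes are shifted to the right for legibility. Ydjc, Slc41a1 and Klhdc4 have low amplitudes of 0.18, 0.19 and 0.26, Bcat2 with 0.34 is lowest at ZT12, and Sprr2a2 follows Sprr2a1.

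Gm42047 (ENSMUSG00000110631) is a long intergenic noncoding RNA on the plus strand of chromosome 8 at 121833247 to 121841178 (GRCm38), with no known role. Read counts after normalisation were 1317 and 1112 (ZT0), 2719 and 1619 (ZT6), 1514 and 892 (ZT12) and 206 and 178 (ZT18). ZT6 was highest and ZT18 lowest, and the ZT0 libraries lay within the range of the ZT12 libraries. The ZT18 mean of 192 ± 19.9 was far below the ZT6 mean of 2169 ± 778 (SD, n = 2 each), with a ratio of 11.3 and a log2 difference of 3.45 (SE 0.39), the widest of the 7. Unlike Ccdc116, it was high at 3 of the time points and low at 1. The ZT6 libraries differed from each other by a factor of 1.68, yet the lower of them, at 1619, was far above both ZT18 libraries.

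Part of Gm42047 cannot be assigned with confidence. Of the stretches of 100 bases in its transcripts, 48.6% occur in transcripts of other genes, and the RNAs Gm47761, Gm43549, Gm47939 and Gm48362, on chromosomes 10, 3, 10 and 9, share 22.1%, 21.9%, 21.0% and 17.9% of them. None of these 4 is in the table, so their levels were not analysed here. Gm42047 also lies within the span of Gm20388, an annotated gene on the same strand that was not analysed here, with no exon in common. The nearest measured gene, Klhdc4, starts 3678 bases upstream of the Gm42047 start on the other strand, so that both are transcribed away from each other, and encodes a kelch domain protein. Its normalised counts were 506 and 319 (ZT0), 391 and 379 (ZT6), 239 and 337 (ZT12) and 504 and 356 (ZT18), an amplitude of 0.26 with a limma adjusted p of 0.712 in the cosine fit. Slc7a5, an amino acid transporter gene 39972 bases away, had an amplitude of 0.08. The genes closest in pattern were Gng10, Mri1 and Mtcl1, at distances of 0.252, 0.255 and 0.271 and with amplitudes of 0.47, 0.44 and 0.94.

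Sprr2a1 (ENSMUSG00000078664) encodes a small proline-rich protein. Such proteins are cross-linked into the envelope of squamous cells, and members of the 2A group are induced in the gut epithelium by bacteria. It lies on the plus strand of chromosome 3 at 92215799 to 92221911 (GRCm38). In the 8 libraries its normalised counts were 2036 and 1533 (ZT0), 2740 and 2385 (ZT6), 1065 and 782 (ZT12) and 875 and 812 (ZT18). The gene was high in the light and low in the dark, and the ZT12 and ZT18 libraries overlapped. The ratio of ZT6, at 2562 ± 251, to ZT18, at 843 ± 44.8 (SD, n = 2 each), was 3.04, a log2 difference of 1.60 (SE 0.23), and the same value was found without ZT0 replicate 2 and ZT12 replicate 1, which enter neither mean.

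The level of Sprr2a1 could not be separated from that of its copies. Sprr2a2 starts within the span of Sprr2a1 on the same strand, with an overlap of 5992 bases of span but only 43 bases (1.43%) of Sprr2a1 exon in GENCODE, whereas RefSeq places its start at 92250647, beyond the end of Sprr2a1. Of the stretches of 100 bases in Sprr2a1 transcripts 88.9% occur in Sprr2a2, 34.7% in Sprr2a3 and 92.5% in any other gene. The likeness extends to the promoters: the RefSeq window of 300 bases around the Sprr2a1 start was identical at every base to that of Sprr2a2 at chr3:92250397-92250696, and 272 of its bases recurred without a mismatch in the window of Sprr2a3 at chr3:92285054-92285353, shifted by 28 bases. The part of that window before the GENCODE start of Sprr2a1 at 92215799, which lies upstream of its RefSeq start, is shown once for both copies. It is chr3:92215585-92215798 (GRCm38.p6, plus strand), 5′ to 3′, with nothing in capitals because no base differs.
Sprr2a1 and Sprr2a2: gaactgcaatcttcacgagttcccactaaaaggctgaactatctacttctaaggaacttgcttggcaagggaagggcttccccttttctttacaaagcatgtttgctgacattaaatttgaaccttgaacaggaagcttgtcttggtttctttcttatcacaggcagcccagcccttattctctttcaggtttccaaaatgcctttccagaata

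Sprr2a2 had normalised counts of 3011 and 2627 (ZT0), 4901 and 3721 (ZT6), 1756 and 1356 (ZT12) and 1915 and 1420 (ZT18). It was the gene closest in pattern to Sprr2a1, at a distance of 0.220, with a peak at 3.85 h and an amplitude of 0.81, and did not pass the threshold (limma adjusted p 0.189 in the cosine fit and 0.150 in the F-test). Sprr2a3 was far more abundant and followed a different course, with 20383 and 13438 (ZT0), 18129 and 15300 (ZT6), 5319 and 12743 (ZT12) and 26421 and 6391 (ZT18). Its ZT18 libraries were the highest and the second lowest of the 8, and its adjusted p was 0.696 in the cosine fit. Sprr1a, a family member of another group, had 49.7 and 311 (ZT0), 623 and 893 (ZT6), 73.0 and 57.6 (ZT12) and 217 and 146 (ZT18). Like Sprr2a1 and Sprr2a2 it was highest at ZT6, with an adjusted p of 0.540 in the F-test. Of these 3 measured family members none was called by either limma fit, while before adjustment 1 was under 0.05 in the cosine fit and 2 were in the F-test, against 9.15% and 7.03% of all genes fitted. The next genes in pattern after Sprr2a2 were Gdf15, which encodes a stress-induced cytokine, at 0.231 and Shisa2 at 0.248.

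Tppp (ENSMUSG00000021573) encodes tubulin polymerisation-promoting protein, which binds and bundles microtubules and is best known from oligodendrocytes. It lies on the plus strand of chromosome 13 at 74009407 to 74035753 (GRCm38). Its normalised counts were 3358 and 2434 (ZT0), 1399.6 and 1184 (ZT6), 1408 and 2036 (ZT12) and 3733 and 3701 (ZT18). It was the only one of the 7 that was lowest at ZT6 and highest at ZT18, nearly opposite in phase to Ccdc116, whose peak was 11.0 h away. The ZT18 mean of 3717 ± 22.4 was 2.88 times the 1292 ± 153 at ZT6 (SD, n = 2 each), a log2 difference of 1.53 (SE 0.26), and no 2 time points overlapped. Of the 7 enteric glia and neuron markers only 1 was in the table, at 7.24 to 38.2 normalised counts. Which cells the Tppp reads came from was not tested.

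The start of Tppp is paired with that of a noncoding RNA, Gm15912, on the other strand. The bases before the Tppp start are shown because they hold the start of Gm15912 and reach up to that of Tppp: the stretch is chr13:74009169-74009406 (GRCm38.p6, plus strand, RefSeq), 5′ to 3′, and the 52 bases between the first exons of Gm15912 and Tppp are in capitals.
Tppp: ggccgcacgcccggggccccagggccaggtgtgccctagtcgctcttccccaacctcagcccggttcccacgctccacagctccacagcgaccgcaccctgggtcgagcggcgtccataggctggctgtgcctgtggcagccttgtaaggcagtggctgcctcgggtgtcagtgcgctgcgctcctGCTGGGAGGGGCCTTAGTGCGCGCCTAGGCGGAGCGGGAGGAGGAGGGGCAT

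This stretch was 71.0% G or C and held 18 CG dinucleotides, whereas the shown Sprr2a1 stretch was 42.1% G or C with 1. Gm15912 had normalised counts of 203 and 186 (ZT0), 163 and 109 (ZT6), 69.3 and 104 (ZT12) and 314 and 168 (ZT18). Like Tppp it was highest at ZT18, but its lowest time point was ZT12 and its replicates at ZT18 were far apart, and with an amplitude of 0.71 and a peak at 21.8 h it did not pass the threshold (limma adjusted p 0.494 in the cosine fit, 0.637 in the F-test, unadjusted 0.0208 and 0.0214). Cep72, a centrosome gene that ends 747 bases beyond Tppp, had 177 and 127, 104 and 109, 61.8 and 91.1, and 126.5 and 124 at ZT0, ZT6, ZT12 and ZT18, with an adjusted p of 0.517 in the cosine fit. The pseudogene Gm6263 inside Tppp was not analysed here, and no stretch of 100 bases of Tppp transcripts occurred in another gene.

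A paralogue of Tppp had its highest values at the same time point. Tppp3, the closest measured relative, had normalised counts of 3216 and 1961 (ZT0), 1031 and 630 (ZT6), 478 and 800.1 (ZT12) and 5483 and 2998 (ZT18). By their means both genes were highest at ZT18, but Tppp3 was lowest at ZT12 (639, against 831 at ZT6) and Tppp at ZT6. The ZT6 and ZT12 libraries of Tppp3 overlapped. The amplitude of Tppp3 was 1.54 with a peak at 20.7 h, wider but with more spread between replicates. Its limma adjusted p-values were 0.0846 in the cosine fit and 0.108 in the F-test. Of 13 other genes of tubulin polymerisation that were fitted, including Tppp3, none was called by either limma fit, and before adjustment 2 (15.4%) were under 0.05 in the cosine fit and 1 (7.69%) in the F-test, against 9.15% and 7.03% of all genes. Apart from Tppp3, those with the smallest F-test p were Hdac6, a tubulin deacetylase, with an amplitude of 0.36, and Mapre3, a microtubule end-binding protein, with 0.26. The 3 genes closest to Tppp in pattern were Chek1, Uhrf1 and Rin3, at distances of 0.207, 0.242 and 0.244, with amplitudes of 0.72, 0.50 and 0.68.

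Pm20d1 (ENSMUSG00000042251) encodes a secreted enzyme that joins fatty acids to amino acids and splits the resulting N-acyl amino acids. It lies on the plus strand of chromosome 1 at 131797381 to 131821473 (GRCm38). Libraries of Pm20d1 held 187 and 256 (ZT0), 370 and 366 (ZT6), 639 and 393 (ZT12) and 846 and 1095 (ZT18) normalised counts. From ZT0 to ZT18 the level was higher at each later time point, with no overlap between time points. The ratio of ZT18, at 971 ± 176, to ZT0, at 221 ± 48.7 (SD, n = 2 each), was 4.39, a log2 difference of 2.13 (SE 0.32), and 2.36 without ZT0 replicate 2 and ZT12 replicate 1. The fitted peak of 15.3 h lay before its highest time point.

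Pm20d1 overlapped no annotated gene, and none of its stretches of 100 bases occurred elsewhere. Slc41a1, a magnesium transporter gene 6020 bases downstream, had normalised counts of 366 and 312 (ZT0), 325 and 313 (ZT6), 399.8 and 308 (ZT12) and 391 and 436 (ZT18), an amplitude of 0.19 and a limma adjusted p of 0.703 in the cosine fit. Of 5 measured genes of related function none was called by either limma fit, while before adjustment 2 were under 0.05 in the cosine fit and 1 in the F-test, where 9.15% and 7.03% of all genes were. Those with the smallest F-test p were Naaa, an acid amidase of N-acylethanolamines, Cndp2, a cytosolic dipeptidase, and Acy1, an aminoacylase. Naaa was lowest at ZT18, where Pm20d1 was highest, with 199.9 and 261 normalised counts. It had 428 and 309 at ZT0, 448 and 386 at ZT6, and 420 and 406 at ZT12, so it was no mirror image of Pm20d1. Its limma adjusted p was 0.512 in the cosine fit. Closest to Pm20d1 in pattern were Nus1, Oaf and Naa35, at distances of 0.150, 0.276 and 0.276, and their amplitudes of 0.17, 0.35 and 0.14 were all below 0.92.

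Alpi (ENSMUSG00000079440) encodes intestinal alkaline phosphatase, a brush border enzyme that removes phosphate from bacterial lipopolysaccharide. It lies on the minus strand of chromosome 1 at 87098002 to 87101606 (GRCm38). Its normalised counts were 253 and 190 (ZT0), 607 and 500.4 (ZT6), 510 and 768 (ZT12) and 532 and 1016 (ZT18). ZT0 lay below all other libraries, while ZT6, ZT12 and ZT18 overlapped one another, so that the data order only ZT0 against the rest. The ZT18 mean of 774 ± 342 was 3.49 times the 222 ± 44.6 at ZT0 (SD, n = 2 each), a log2 difference of 1.74 (SE 0.43), which was 1.27 without ZT18 replicate 2, 2.20 without ZT18 replicate 1 and 1.53 without ZT0 replicate 2 and ZT12 replicate 1.

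Alpi and Pm20d1 were both highest in ZT18 replicate 2. The summed normalised count of the colonocyte markers, 8 of 8 in the table, ran from 249892 in ZT0 replicate 1 to 442004 in that same library, with 352401 in ZT0 replicate 2 and 295067 in ZT18 replicate 1, and none was at 0. By the median log2 deviation the order was another: the list was highest in ZT18 replicate 1 (0.22), with ZT18 replicate 2 at 0.08, and lowest in ZT0 replicate 1 (-0.28). Its part in the values of Alpi and Pm20d1 was not tested. The other alkaline phosphatase genes, Alpl, Akp3 and Alppl2, were not analysed here. No annotated gene overlaps Alpi, and the nearest measured gene was Dis3l2, 47907 bases away, with an amplitude of 0.12 and a limma adjusted p of 0.893 in the cosine fit.

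Of 19 other brush border genes fitted, none was called by either limma fit. Before adjustment 3 (15.8%) were under 0.05 in the cosine fit and 2 (10.5%) in the F-test, against 9.15% and 7.03% of all genes. Those with the smallest F-test p were Fabp2, the intestinal fatty acid-binding protein, Dpp4, a peptidase, and Mgam, a disaccharidase. Fabp2 had normalised counts of 3578 and 5878 (ZT0), 7521 and 7621 (ZT6), 3786 and 4409 (ZT12) and 7109 and 7669 (ZT18), with a limma adjusted p of 0.574 in the F-test. Dpp4 was highest at ZT12, with 1075 and 938 against 636 and 480.4 at ZT0, as was Mgam, with 9896 and 6761 against 5560 and 5152, with adjusted p-values of 0.637 and 0.701. In pattern Alpi was closest to Parp9, Mlkl and Gm16206, at distances of 0.249, 0.311 and 0.334.

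Across all 7 genes, 21 annotated neighbours within 50 kb were in the table and 19 were fitted. None was called by either limma fit, and before adjustment 4 were under 0.05 in the cosine fit and 3 in the F-test, against 1235 and 949 of all 13503 genes. The median amplitude of the neighbours was 0.34, against 0.23 over all genes. Of the neighbours, Sprr2a2 was the only one at a pattern distance under 0.7 from the gene it adjoins, and the other 18 lay between 0.722 (Gm15912 to Tppp) and 1.87 (Sdf2l1 to Ccdc116).

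**Figure D4:**
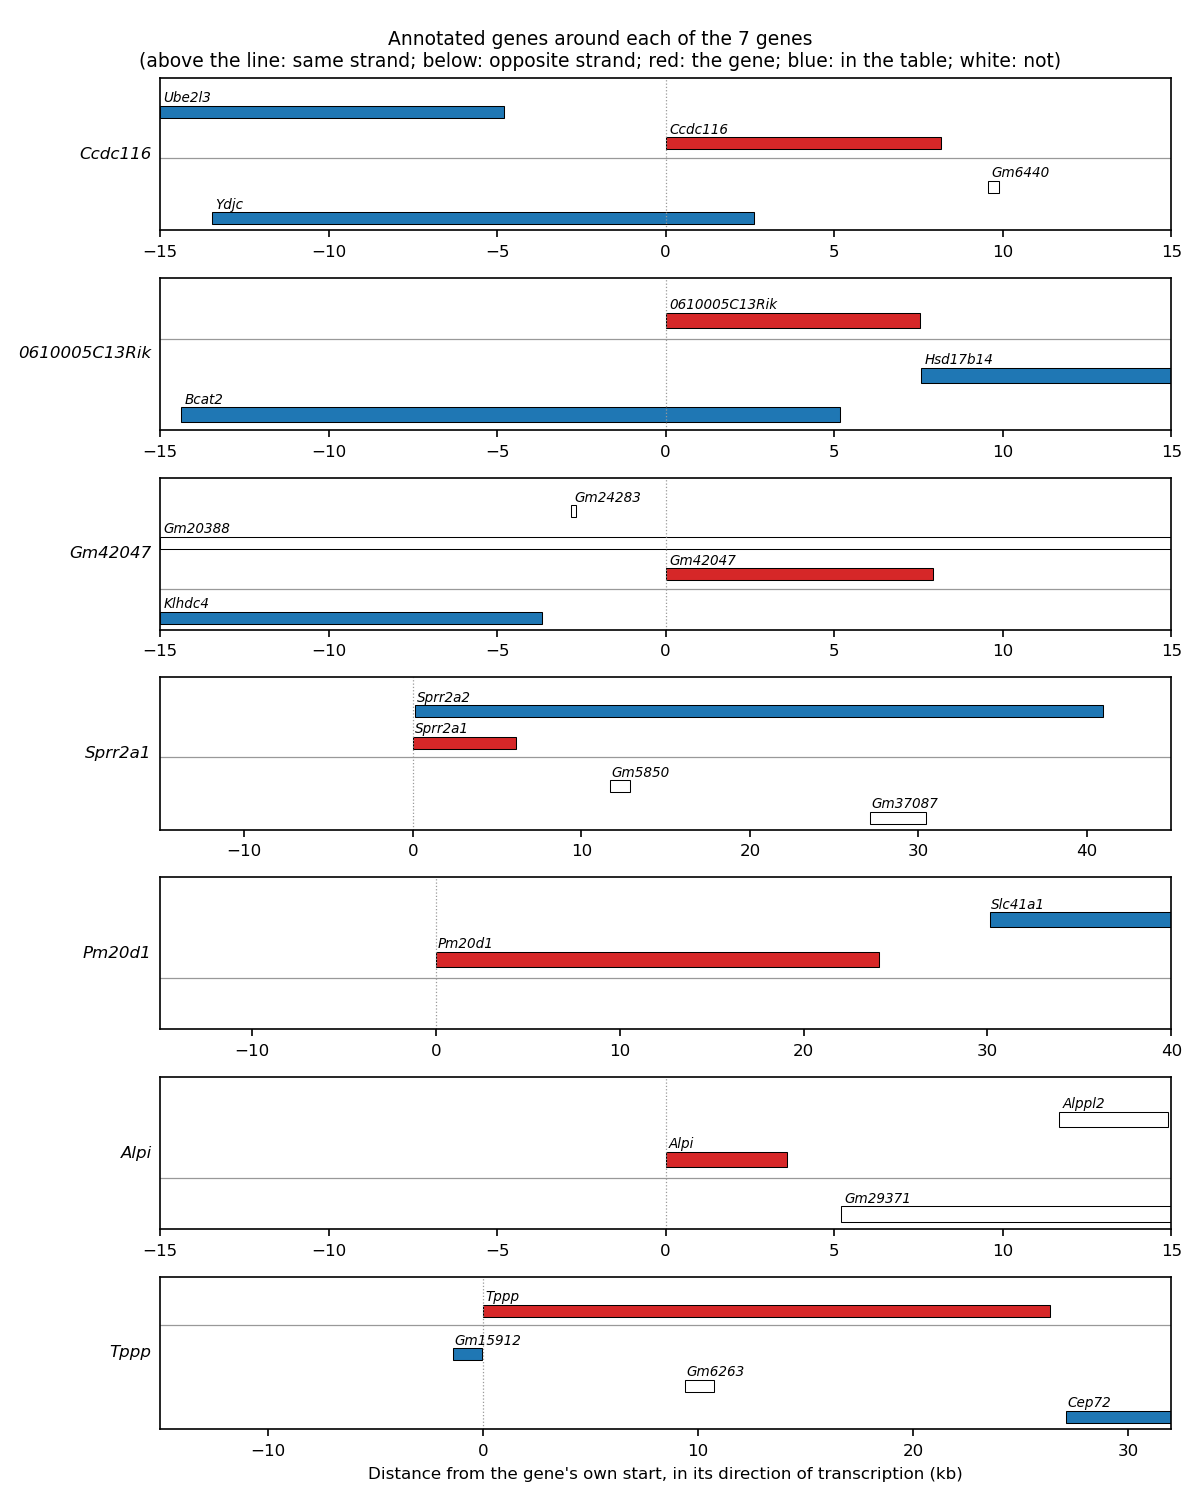
Annotated genes around each of the 7 genes, drawn to scale from the start of that gene in its direction of transcription (x axis, kb), with genes on the same strand above the line and on the opposite strand below, cut at the panel edge. Red bars are the 7 genes, blue bars are other genes in the table and white bars genes that are not. Ccdc116 and 0610005C13Rik, at the outermost starts drawn, begin inside a gene on the other strand. Sprr2a2 begins inside Sprr2a1 in this annotation (GENCODE), and Pm20d1 and Alpi overlap nothing.

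RefSeq promoter windows of 300 bases were at hand for 5 of the 7 genes, and 3 of the 7 windows belong to Ccdc116. They were searched on both strands for 6 motifs of daily or hormonal regulation: the E-box CACGTG, its variant CACGTT, the D-box TTATGTAA, AGGTCA, which nuclear receptors of the clock bind, the cAMP response element TGACGTCA, and the palindromic glucocorticoid response element. None of these motifs was in any of the 7 windows. Over all 32851 promoter windows they were in 7.15%, 4.68%, 0.938%, 16.3%, 1.79% and 0.00913% of them, in that order.

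Levels can be set side by side only per length. Per kilobase of annotated exon, the mean normalised count over the 8 libraries was 509 for Sprr2a1, 472 for Tppp, 234 for Alpi, 212 for Gm42047, 98.8 for 0610005C13Rik, 73.8 for Pm20d1 and 71.5 for Ccdc116. In recovered reads the lowest library of any of the 7 was that of Ccdc116 at ZT0, with 138 reads, so the differences above rest on at least that many reads per library.

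Among themselves the 7 genes formed no single pattern. The nearest pair was Ccdc116 and 0610005C13Rik, at a distance of 0.590 over the 8 libraries with peaks 2.21 h apart, followed by Sprr2a1 and Gm42047 at 0.701 and by Pm20d1 and Alpi at 0.711. The pair farthest apart was Ccdc116 and Tppp, at 1.96. In the first pair the difference was in the time points they shared: Ccdc116 was higher at ZT6 than at ZT12, and 0610005C13Rik higher at ZT12 than at ZT6, in all libraries of both.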

How the data were processed

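RNA of colonic crypts was sequenced in 8 libraries, 2 at each of 4 time points. According to the study's methods and processing notes, reads were aligned with STAR to GRCm38 and analysed with DESeq2; the gene annotation and strand use are not given in the sources used here. The authors deposited 1 table of 14247 genes, whose 8 library columns are a signal, read counts divided by 1 size factor per library, called normalised counts here. Its other columns, a log2 fold change with its error, a test score and p-values deposited by the authors, were not used. Every value was a whole multiple of what 1 read is worth in its library (100% whole, to within 0.1 of a read), which gave back the reads.

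Genes with a mean of at least 10 (13503) were fitted on log2(normalised count + 1) with limma 3.58.1 in R 4.3.3 (eBayes with trend, all 8 libraries), by a 24 h cosine and by an F-test over 4 time points, with Benjamini-Hochberg adjustment at 0.05. The fits were checked on data with known changes. An SE of a log2 difference comes from the spread within time points. Neighbours were the genes of GENCODE M21 within 50 kb; 14244 genes matched it. The members, gene lists and named genes (overlapping and nearest measured genes, family members, the 3 smallest F-test p per list, the 3 closest in pattern) were chosen with earlier results of these data known. No molecular identifiers were used, so depth covers counting error only. Alternatives included edgeR 4.0.16 and DESeq2 1.42.0 on recovered reads, other scalings, a replicate block and leaving out libraries.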

Additional observations from a re-analysis of the deposited data

How the results depend on the processing

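The 24 h cosine fit called 16 genes and the F-test over the 4 time points 12. Without the variance trend these were 1 and 2, and with DESeq2's likelihood ratio test on recovered reads 189 and 217, which included all 16 and all 12. Of the 7 genes, 4 and 2 were called by these fits, 0 without the trend, 6 (all but Alpi) and 7 with DESeq2, and 3 (all of the 4 but Tppp) and 1 (Ccdc116) with edgeR. The cosine fit called 0 of the 7 without ZT0 replicate 1, ZT6 replicate 1 or ZT12 replicate 2, and the F-test 0 without either of the last 2; all other single libraries left out gave 1 or 2. Scaling to reads outside the mitochondrial genome ended the cosine call of 0610005C13Rik. An exact two-sided rank test over 4 cosine orders called 0 genes (278 at an unadjusted p under 0.05; the smallest p it can give is 0.0190). Leaving out 1 library gave 6 (without ZT12 replicate 2) to 18 genes for the cosine fit and 1 (without ZT6 replicate 1) to 16 for the F-test. The cosine fit gave 8 and 9 with ZT6 replicate 1 or 2 left out, and 10 with ZT0 replicate 1, ZT12 replicate 1 or ZT18 replicate 2 left out. The F-test gave 3 without ZT6 replicate 2 and 2 without ZT12 replicate 2. Without both ZT0 replicate 2 and ZT12 replicate 1, a choice made after seeing the data, the counts were 10 and 1, with Sprr2a1 the only one of the 7 genes among them. The cause was not tested beyond the fewer samples in these fits. With the replicate number as a block the counts were 12 and 8, all among the main ones. Of the 7 genes only Sprr2a1 (cosine) and Gm42047 (F-test) were then called, and no neighbour and no related gene was called. Deviations of same-numbered libraries correlated between -0.29 and 0.22 over 6 pairs of time points. With 2 libraries per time point, and stromal or immune markers high in ZT0 replicate 2 and ZT12 replicate 1, these correlations cannot show whether the numbers pair the libraries. Among neighbours DESeq2 called 1 gene in each fit, Sprr2a2. Among related genes it called 2 in the cosine fit, Sprr2a2 and Tppp3, and 4 in the F-test, these and Fabp2 and Sprr1a. Leaving out 1 library gave 0 to 1 related genes in either fit (Tppp3 without ZT0 replicate 2, Sprr1a without either ZT0 library) and no neighbour; every other alternative called none, edgeR included. Of 273 values of amplitude, peak time and highest minus lowest level of the 7 genes, 267 moved by less than the spread between replicates and 6 by more. No highest minus lowest level changed sign. The yardstick was each gene's own spread, so it was widest for the noisiest genes. Leaving out a library of another time point cannot change a highest minus lowest level at all. The count of 267 is therefore no measure of robustness. Fitted peaks moved most for Alpi, from 11.3 to 13.9 h.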

Other observations

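Of the 20 other brush border genes in the table, 9 were higher in ZT18 replicate 2 than in ZT18 replicate 1, as was Alpi with 1016 against 532 normalised counts, and 11 were lower. Among those higher in replicate 2, Sis, which encodes sucrase-isomaltase, had 0 and 273, Enpep, an aminopeptidase, 4.27 and 191, and Ggt1, a glutamyltransferase, 121 and 644. Among those lower, Slc26a3, a chloride and bicarbonate exchanger, had 43260 and 23279, Myo1a, a brush border myosin, 17717 and 11760, and Krt20, a keratin of differentiated colonocytes, 36740 and 25784. At ZT12 Sis had 1070 and 43.8 and Enpep 366 and 123, with replicate 1 higher, whereas Ggt1 with 404 and 536 and Alpi with 510 and 768 were higher in replicate 2. These 6 genes were chosen after their values were seen, and the cause of the differences was not tested.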
